A study of Mus musculus with 24 samples.

Results

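The 10 clade B serpins Serpinb1a, Serpinb2, Serpinb3a, Serpinb5, Serpinb6c, Serpinb7, Serpinb8, Serpinb11, Serpinb12 and Serpinb13 were followed in embryonic mouse skin at E18.5 (E, embryonic day), from animals that had lost no copy, 1 copy or both copies of the desmoglein 1 (Dsg1) gene cluster. They were chosen by name as serpins of this clade known from epidermis, not by a cut on their values. Earlier results of these data were known when they were chosen. They are 10 of 54087 gene symbols in the count table, and all 10 were among the 17094 genes with enough reads to test. The libraries are whole dorsal skin, so that a fall in the number of cells of a type and less RNA in each cell cannot be told apart, and no value below belongs to a single cell type.

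Serpins are a fold of protease inhibitors that work as suicide substrates. A protease cuts an exposed stretch near the carboxyl end, called the reactive center loop, and the serpin then swings the cut loop into its own body and traps the enzyme. Clade B members lack a classical secretion signal and act mostly inside cells. In the epidermis they meet the cathepsins, kallikreins and other proteases that are active while keratinocytes cornify and shed, and loss of single members in people leads to thickened or peeling skin.

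The study asked what follows in skin when keratinocytes lack desmoglein 1, a cadherin of the desmosomes that hold these cells together. Mice were on a C57BL/6 background. WT embryos carried both copies of the tandem Dsg1a, Dsg1b and Dsg1c genes, HET embryos 1 copy, and KO embryos none; the deletion was made with CRISPR/Cas9 in zygotes, is present in all tissues, and descends from a single founder animal, so that every HET and KO embryo carries the same allele. There were 8 libraries of each genotype, and libraries that share a title number were summed into 5 replicates per genotype, WT, HET and KO replicates 1 to 5. The labels do not say that a number is 1 embryo, so p-values measure the spread between these replicates and nothing more.

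Levels are given in CPM, counts in a library scaled to 1000000 counts. Summed over Dsg1a, Dsg1b and Dsg1c, WT replicates had 806 ± 112 CPM, HET replicates 422 ± 51.5 CPM and KO replicates 0.548 ± 0.343 CPM (SD, n = 5 each), with no overlap, so the genotype labels held in every replicate. Total counts ran from 15.28 M to 33.68 M (M, mega) over the 15 replicates. In 8 of the 9 numbers with a pair of libraries, the libraries agreed closely (chi-square divided by its degrees of freedom, 1.59 to 1.86). The exception was WT replicate 2, at 15.6, whose libraries also differed in Y-linked genes, at 338 and 0.157 CPM, and in Xist, the RNA of the inactive X chromosome, at 0.275 and 574 CPM, although both had the Dsg1 level of WT. That is the pattern of a male and a female sample, so WT replicate 2 may pool 2 embryos, and it enters every WT mean and SD as 1 of n = 5. Its libraries differed up to 1.46-fold in a serpin of the 10, at 159 and 231 CPM for Serpinb2. No serpin passed the test in any comparison when this number was kept as separate libraries or represented by either library alone. The single library of KO replicate 4 lay farthest from the rest: its chi-square over degrees of freedom was 39.8 to 144 against each of the other 23 libraries, with a median of 96.7, beside 33.9 over all pairs of different numbers. None of the 10 serpins passed without it.

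The serpins are set apart by the letters around the loop. For the members that carry codons for the conserved His-Pro-Phe motif at the same place, 21 codons before the stop, the 99 coding bases that run through the loop and end in that motif are shown 5′ to 3′, from the GENCODE vM21 transcripts on GRCm38. They are printed because the loop decides which protease a serpin can trap. Capitals mark the motif codons.
Serpinb1a: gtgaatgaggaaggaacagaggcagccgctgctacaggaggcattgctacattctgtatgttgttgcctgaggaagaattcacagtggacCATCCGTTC
Serpinb2: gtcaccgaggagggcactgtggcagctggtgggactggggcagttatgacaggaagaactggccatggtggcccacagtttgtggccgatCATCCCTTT
Serpinb3a: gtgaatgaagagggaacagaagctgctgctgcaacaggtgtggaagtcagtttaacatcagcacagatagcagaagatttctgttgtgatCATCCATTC
Serpinb3b: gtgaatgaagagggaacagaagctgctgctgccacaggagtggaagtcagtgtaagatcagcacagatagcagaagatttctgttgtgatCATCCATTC
Serpinb5: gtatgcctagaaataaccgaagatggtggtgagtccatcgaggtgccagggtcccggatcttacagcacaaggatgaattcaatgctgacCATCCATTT
Serpinb8: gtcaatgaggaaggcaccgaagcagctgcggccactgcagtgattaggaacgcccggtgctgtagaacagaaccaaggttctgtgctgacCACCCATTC
Serpinb12: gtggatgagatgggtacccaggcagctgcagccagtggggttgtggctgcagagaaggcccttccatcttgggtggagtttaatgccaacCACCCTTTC
Serpinb13: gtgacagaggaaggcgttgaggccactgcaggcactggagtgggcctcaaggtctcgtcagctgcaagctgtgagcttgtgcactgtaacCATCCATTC

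The motif codons were at this place in 7 of the 10 members; Serpinb6c, Serpinb7 and Serpinb11 had other codons there. Serpinb3b is shown because it is a close relative of Serpinb3a: 4 of the 99 bases differ. Over whole proteins translated from these transcripts, Serpinb3a and Serpinb3b were 86.6% identical, whereas pairs among the 10 members ranged from 31.2% for Serpinb5 and Serpinb12 to 57.3% for Serpinb6c and Serpinb8, with a median of 40.9% over 45 pairs. Other members also had close relatives outside the 10: Serpinb1a with Serpinb1b, at 86.8% identity, and Serpinb6c with Serpinb6b, at 79.3%. This closeness bears on the counts. Of all 50-base windows in its exons, Serpinb3a shared 15.04% with other genes, Serpinb2 10.4% and Serpinb6c 9.92%. Serpinb1a shared 2.81% and Serpinb8 0.165%, whereas the other five members shared 0. The shared windows of Serpinb2 are exons that overlap Serpinb10, those of Serpinb3a belong mostly to Gm8080 and Serpinb3b, and those of Serpinb6c mainly to Serpinb6b and Serpinb6d, so that the counts of these 3 members are less certain than the others.

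Levels per kilobase of exon ranked the serpins in WT skin. Serpinb12, an inhibitor of trypsin-like proteases, was at 259 ± 25.7 CPM per kilobase and Serpinb5 (maspin), a member of basal keratinocytes that does not trap proteases, at 252 ± 29.4 (SD, n = 5). Their ranges overlapped, and the order of this pair is not separated by the replicates. Serpinb3a, a mouse relative of the squamous cell carcinoma antigens, followed at 169 ± 31.5 CPM per kilobase, with its highest replicate, at 190, below the lowest of Serpinb5, at 206.

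Serpinb2 (plasminogen activator inhibitor 2) was at 87.4 ± 13.4 CPM per kilobase, Serpinb1a, an inhibitor of neutrophil elastase, at 84.6 ± 21.1, and Serpinb7 at 77.6 ± 10.7. Their ranges overlapped. Serpinb8, an inhibitor of furin, was lower, at 21.1 ± 3.52 CPM per kilobase, and Serpinb6c, a mouse paralog of the cathepsin G inhibitor SERPINB6, at 10.1 ± 2.42. Serpinb11 was at 2.16 ± 0.530 and Serpinb13, an inhibitor of cathepsin L, at 0.218 ± 0.0827 CPM per kilobase. From Serpinb7 down, the ranges of neighbors in the order did not overlap.

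Added up, the 10 serpins came to 2289 ± 241 CPM in WT skin, to 2507 ± 227 CPM in HET skin and to 2309 ± 396 CPM in KO skin (SD, n = 5 each). Serpinb12 and Serpinb5 made up most of it, with 28.4% and 30.3% of the total in WT and 28.2% and 32.9% in KO. Serpinb13 stood at the other end, with 4 to 18 counts in a replicate. The lowest count of Serpinb11 in a replicate was 50, and the other eight members had at least 220.

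**Figure D1:**
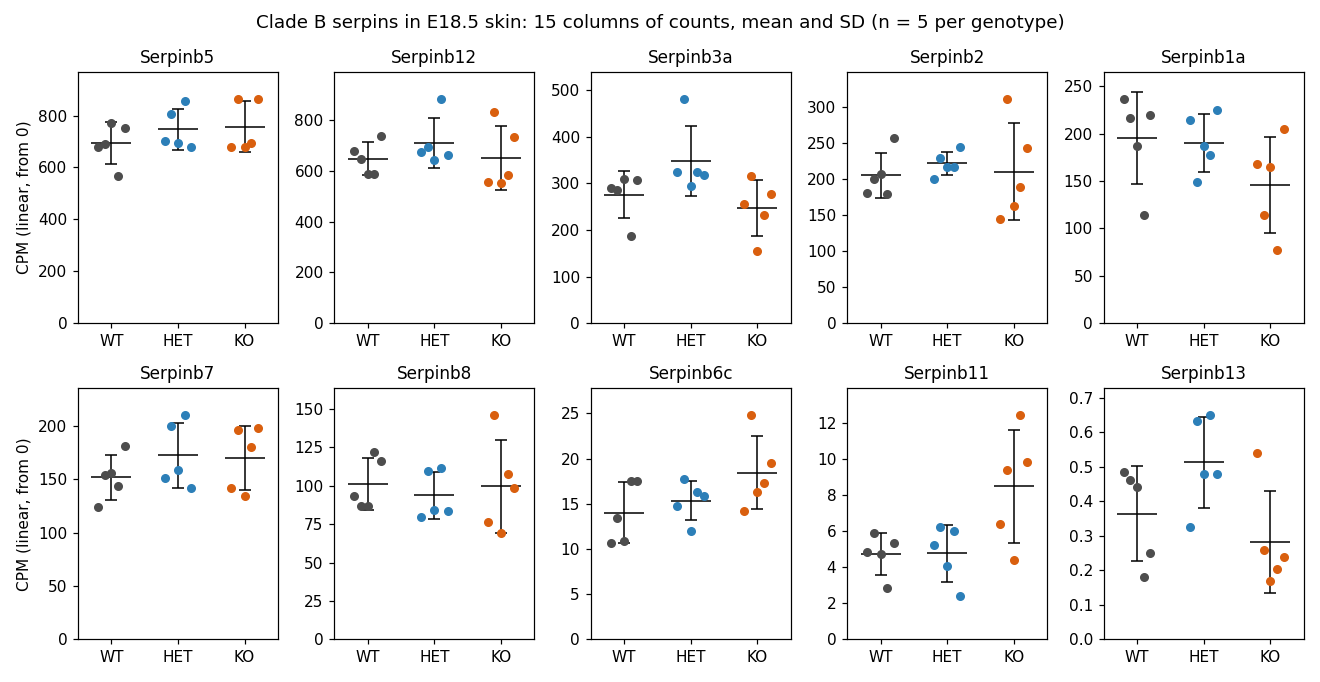
CPM of each serpin on a linear axis from 0 in the 5 WT, 5 HET and 5 KO replicates, in order of WT level, with 1 point per replicate and the mean and SD as bars. In all 10 panels the genotypes overlap, with 4 of 5 KO points of Serpinb11 above the highest WT point.

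The first comparison asked whether loss of both Dsg1 copies changed the serpins. None of the 10 passed an adjusted p of 0.1 in KO against WT, where 1.15% of all tested genes passed (edgeR quasi-likelihood test with Benjamini-Hochberg adjustment). At an unadjusted p under 0.05 there were 2 members, Serpinb11 and Serpinb6c, against 19.3% of all genes. DESeq2 passed 1 of the 10, Serpinb11, and limma-voom 0. Over all 17094 genes tested, DESeq2 passed 894 upward and 557 downward, and limma-voom 258 and 248. Groups overlapped for all 10, and for 3.37% of all genes they did not. Fitted differences were above 0 for 6 serpins and below 0 for 4, and their median was 0.02 on the log2 scale, beside -0.01 over all genes tested.

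Serpinb11, one of the less studied members, was at 4.85, 5.91, 4.71, 2.84 and 5.34 CPM in WT replicates 1 to 5. In KO skin its levels were 6.37, 9.37, 4.38, 12.4 and 9.86 CPM. All KO replicates but replicate 3 lay above every WT replicate, and the mean was 179% of WT. The log2 fold change was 0.84 ± 0.29 (SE), with a 95% interval from 0.23 to 1.45, an unadjusted p of 0.0098 and an adjusted p of 0.148. It was 0.47 in the libraries of the first title format alone and 0.89 in those of the second, with 3 and 5 replicates per genotype. Every title number of the first format recurs in the second. The values by title format, here and for the serpins below, are therefore not independent. Leaving out single replicates gave 0.66 to 1.00 on the log2 scale. The lowest value came without KO replicate 4, the library farthest from the rest and the highest in Serpinb11 (adjusted p = 0.319), and the highest without KO replicate 3, where Serpinb11 passed at an adjusted p of 0.0770. The adjusted p ranged from 0.0268 to 0.687 over all alternatives, and DESeq2, which gave 0.0596, was among those that passed it.

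Markers of stressed keratinocytes are given beside Serpinb11. Of the 8 genes of this list, 7 had a fitted difference above 0 in KO against WT and 7 an unadjusted p under 0.05, beside 19.3% of all genes. The gene below 0 was Krt17, at -0.11 on the log2 scale. Past an adjusted p of 0.1, beside 1.15% of all genes, 2 rose, Krt16, a keratin of injured epidermis, by 3.52 on the log2 scale (adjusted p = 0.0333) and Sprr1b, a cornified envelope precursor, by 2.99 (adjusted p = 0.0171). The summed level of the list was 685 to 935 CPM in WT, 617 to 1200 in HET and 819 to 1599 in KO replicates. Its lowest KO value belonged to replicate 3, the same replicate in which Serpinb11 was lowest. Whether the same cells carry both was not tested.

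Serpinb6c had WT levels of 10.7, 13.4, 10.9, 17.5 and 17.5 CPM and KO levels of 14.2, 24.8, 16.3, 17.3 and 19.5 CPM. KO replicates 2 and 5 were above all WT replicates and the other three within their range. The log2 fold change was 0.40 ± 0.17 (SE; 95% interval, 0.03 to 0.76; adjusted p = 0.225), with 0.32 and 0.45 in the libraries of the first and second title format. It fell to 0.26 without KO replicate 2.

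Serpinb1a had a lower mean in KO skin, which did not pass the test. WT replicates were at 237, 217, 187, 114 and 220 CPM, and KO replicates at 168, 114, 165, 76.9 and 205 CPM. KO replicate 4 fell below the lowest WT replicate, which itself lay far under the other WT replicates. KO replicate 2, at 113.86 CPM, was almost level with that lowest WT replicate, at 114.25 CPM. The log2 fold change of -0.42 ± 0.24 (SE) had an interval from -0.92 to 0.08 and an adjusted p of 0.332; it was -0.31 and -0.38 in the libraries of the first and second title format, and -0.26 without KO replicate 4, the library farthest from the rest and the lowest in Serpinb1a. The 6 mast cell markers had a summed level of 1623 ± 299 CPM in WT and 1329 ± 360 CPM in KO replicates (SD), none of them past the test, and the part of mast cells in the value of Serpinb1a was not tested.

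For the abundant members, the intervals were narrow. Serpinb12 was at 648 ± 64.2 CPM in WT and 651 ± 125 CPM in KO, a log2 fold change of 0.01 with a 95% interval from -0.26 to 0.28. Serpinb5 was at 693 ± 81.0 and 756 ± 98.8 CPM, with a log2 fold change of 0.13 and an interval from -0.11 to 0.36. A log2 change of 1 in either direction lies outside both intervals.

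Serpinb2 had a mean of 205 CPM in WT and 210 CPM in KO replicates, with a log2 fold change of 0.04 (95% interval, -0.32 to 0.39). The KO replicates spread more widely, from 145 to 311 CPM, a 2.15-fold range against 1.43-fold in WT. Serpinb8 showed the same: its KO levels ran from 69.3 to 146 CPM (2.11-fold) and its WT levels from 87.0 to 122 CPM (1.41-fold), around a log2 fold change of -0.02 (-0.40 to 0.36). KO replicate 2 had the highest level of both serpins. Whether the spread itself differs between genotypes was not tested.

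Serpinb7, whose loss in people causes a palmoplantar keratosis, was at 152 ± 20.96 CPM in WT and 170 ± 30.1 CPM in KO skin, with a log2 fold change of 0.16 (95% interval, -0.13 to 0.46). Serpinb3a had a log2 fold change of -0.16 (-0.55 to 0.23) and Serpinb13 of -0.32 (-1.08 to 0.45). The last of these intervals is the widest of the 10 and belongs to the serpin with the fewest counts.

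The HET group asked whether loss of 1 copy was enough. No serpin passed in HET against WT, and neither did any other of the 17094 genes tested (0.0%). The adjusted p was 1.00 for each of the 10. Thus Dsg1a, Dsg1b and Dsg1c did not pass either, although their summed level was 422 CPM in HET and 806 CPM in WT, without overlap. A lack of passes here does not by itself show that a gene was unchanged. No member had an unadjusted p under 0.05, which 270 genes (1.58%) had, and DESeq2 called none of the 10 either. Groups overlapped for all 10 serpins, while 0.374% of genes did not overlap. The median difference of the 10 was 0.12 on the log2 scale beside 0.00 over all genes, with 8 members above 0. The same WT replicates enter this comparison and the former.

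Serpinb3a had the smallest p of the 10 in HET skin. WT replicates 1 to 5 were at 290, 287, 310, 186 and 308 CPM and HET replicates at 324, 482, 295, 326 and 319 CPM. The HET replicates other than replicate 3 exceeded all WT replicates. The log2 fold change was 0.34 ± 0.18 (SE), with a 95% interval from -0.06 to 0.73 and an unadjusted p of 0.0868, and it was 0.19 without HET replicate 2. Serpinb13 had a larger difference, 0.45, with an interval from -0.28 to 1.17, and the remaining members lay between -0.11 for Serpinb8 and 0.18 for Serpinb7.

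In KO against HET skin, again none of the 10 passed, where 0.333% of genes did. An unadjusted p under 0.05 was found for 3 members, Serpinb11, Serpinb3a and Serpinb13, beside 16.0% of all genes, and no member separated the groups, which 2.25% of genes did. DESeq2 passed 1 of the 10, Serpinb11, and limma-voom 0. Over all 17094 genes tested, DESeq2 passed 451 upward and 339 downward here, and limma-voom 36 and 73. The median of the 10 was -0.05 on the log2 scale and that of all genes 0.00.

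Serpinb11 had HET levels of 5.21, 6.25, 4.05, 5.99 and 2.39 CPM, similar in range to WT, and was higher in KO by 0.82 ± 0.29 on the log2 scale (SE; 95% interval, 0.22 to 1.43; adjusted p = 0.198), and by 0.65 without KO replicate 4. Serpinb3a was at 255, 317, 155, 233 and 278 CPM in KO replicates, 4 of which lay below all HET replicates. Its log2 fold change was -0.49 ± 0.18 (SE; interval, -0.89 to -0.10; adjusted p = 0.225), which became -0.35 without HET replicate 2 and -0.36 without KO replicate 3. With the title format as a term and the title number as a random block, limma-voom on the 24 libraries passed both, at an adjusted p of 0.0586 for Serpinb11 and 0.0695 for Serpinb3a. They also passed, at 0.0386 and 0.0270, with the 24 libraries as separate samples, a fit that takes libraries of the same number as independent. Of 16034 genes, the former fit passed 706 upward and 472 downward in this comparison, and the latter 2243 and 1701. Over all alternatives the adjusted p of Serpinb11 ran up to 0.649 and that of Serpinb3a up to 0.421.

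Serpinb13 was at 0.33, 0.63, 0.48, 0.65 and 0.48 CPM in HET and at 0.54, 0.26, 0.17, 0.21 and 0.24 CPM in KO replicates. All KO replicates but replicate 1 were below the HET replicates. The log2 fold change was -0.76 ± 0.35 (SE; 95% interval, -1.51 to -0.01; adjusted p = 0.304). Leaving out single replicates gave -1.18 (without KO replicate 1) to -0.62. These levels rest on 4 to 18 counts a replicate.

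**Figure D2:**
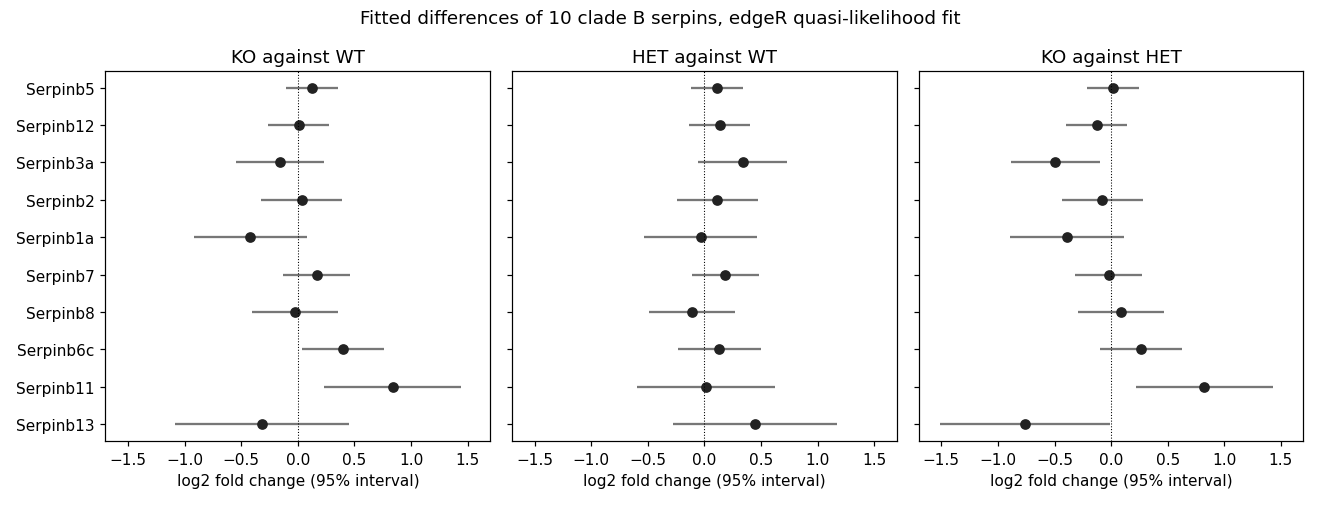
Log2 fold change (points) and 95% interval (lines) of each serpin in KO against WT, HET against WT and KO against HET. In KO against WT the intervals of Serpinb11 and Serpinb6c lie above 0, from 0.23 and 0.03 upward, in HET against WT all 10 include 0, and in KO against HET that of Serpinb11 lies above 0 and those of Serpinb3a and Serpinb13 below.

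Serpin levels over all 15 replicates were compared with 17 gene lists that mark skin cell types or belong to the protease network. Each r and its permutation p therefore hold differences between genotypes as well as variation within them. Values of r within a genotype, or after each genotype was centered on its own mean, are descriptions and were not tested. Over 170 pairs of a serpin and a list, 13 had a Benjamini-Hochberg adjusted permutation p of 0.1 or below for Pearson's r of log2(CPM + 1), and 7 for both Pearson's r and Spearman's rho. All points are the 15 replicates, whose values share a library and a scaling factor. Without KO replicate 4, a check chosen after the data were seen, the 7 relations had r of 0.80 or more in size, except -0.79 for Serpinb1a with spinous genes. The map of r over all pairs shows different serpins beside different lists.

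**Figure D3:**
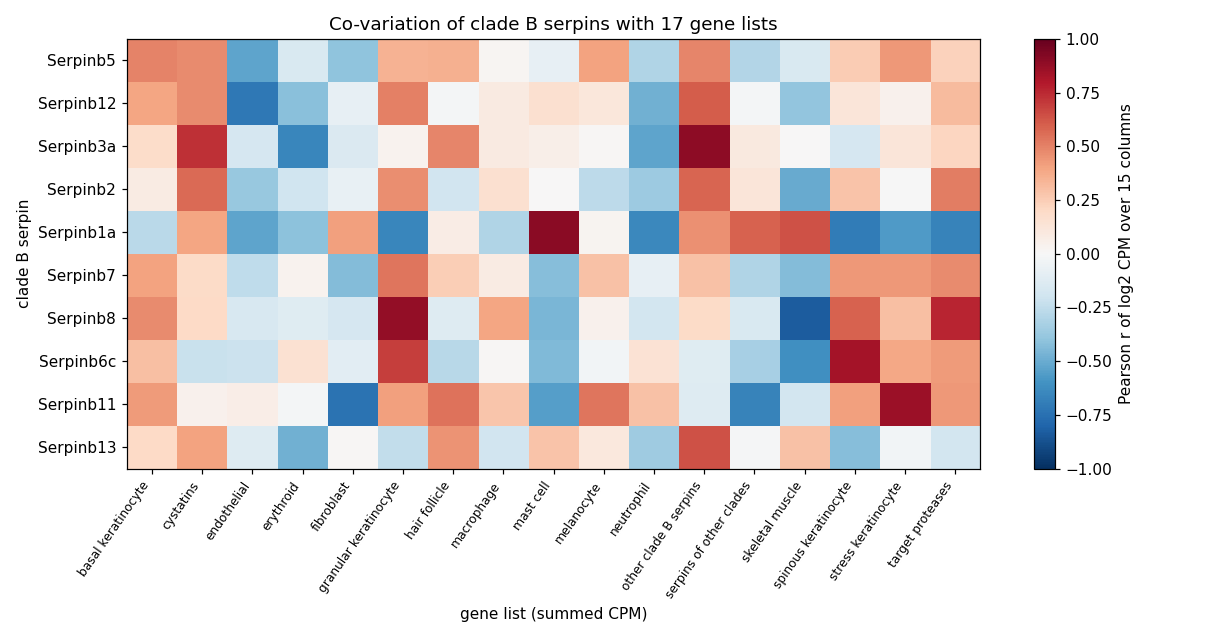
Pearson r over 15 replicates between log2(CPM + 1) of each serpin (rows) and the log2 summed level of each gene list (columns), from -1 in blue to 1 in red. The deepest red cells are Serpinb1a with mast cell genes (0.90), Serpinb3a with other clade B serpins (0.89), Serpinb8 with granular keratinocyte genes (0.88) and Serpinb11 with stress keratinocyte genes (0.86).

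Serpinb8 followed the genes of the granular layer, such as Flg, Lor and Ivl, where keratinocytes load the material of the cornified envelope. Pearson's r was 0.88 and Spearman's rho 0.85 (adjusted permutation p = 0.00085 and 0.0068). The relation was 0.80 without the 2 replicates farthest from the median of the list and 0.93 after each genotype was centered on its own mean. Within genotypes r was 0.85 in WT, 0.95 in HET and 0.95 in KO. KO replicate 2 had both the highest Serpinb8 level, 146 CPM, and the highest summed granular level, 21337 CPM against 8941 to 14174 in all others.

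Serpinb8 ran against skeletal muscle genes, with r = -0.83 and rho = -0.78 (adjusted permutation p = 0.00306 and 0.0241; r = -0.78 without the 2 farthest replicates). Summed muscle levels varied from 9422 to 21041 CPM between replicates, and the part of sample makeup in either relation of Serpinb8 was not tested.

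Serpinb6c followed the spinous list, which includes Krt1 and Krt10, the keratins of the layers just above the basal cells. Here r was 0.83 and rho 0.77 (adjusted permutation p = 0.00425 and 0.0335). The value fell to 0.64 without the 2 farthest replicates, and it was 0.81 after centering on genotype. All 6 spinous genes had a fitted difference above 0 in KO against WT, with 3 at an unadjusted p under 0.05 beside 19.3% of all genes. Of them 1 passed, beside 1.15% of all genes: the desmosomal cadherin Dsc1, which rose by 0.64 on the log2 scale (adjusted p = 0.0915). All 8 granular genes were likewise above 0, with 5 at an unadjusted p under 0.05, and 1 passed, the envelope protein Ivl, which rose by 0.76 (adjusted p = 0.0231).

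Serpinb11 followed the stress list in all genotypes, with r = 0.86 and rho = 0.89 (adjusted permutation p = 0.00113 and 0.0051). It was 0.88 without the 2 farthest replicates, 0.75 after centering on genotype, and 0.76, 0.86 and 0.68 within WT, HET and KO. The list itself was higher in KO skin, and the value after centering leaves that difference out. The list level is a sum of CPM, so abundant genes weigh most in it. With the hair follicle list, Serpinb11 had r = 0.54 (adjusted permutation p = 0.220), and 0.75, 0.89 and 0.46 within WT, HET and KO.

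Serpinb1a was the only one of the 10 that followed a cell type outside the epidermis in a positive direction past both tests. Against the mast cell genes Kit, Cpa3, Mcpt4, Cma1, Tpsb2 and Fcer1a, r was 0.90 and rho 0.85 (adjusted permutation p = 0.00255 and 0.0068), and r was 0.89 without the 2 farthest replicates. Within genotypes it was 0.95 in WT, 0.89 in HET and 0.94 in KO, and without KO replicate 4 it was 0.80 over all. Toward spinous keratinocyte genes Serpinb1a ran the other way, with r = -0.70 and rho = -0.80 (adjusted permutation p = 0.0662 and 0.0238; r = -0.64 without the 2 farthest replicates). The name epidermal serpin rests for Serpinb1a on knowledge from elsewhere, since whole skin cannot place it in a cell.

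**Figure D4:**
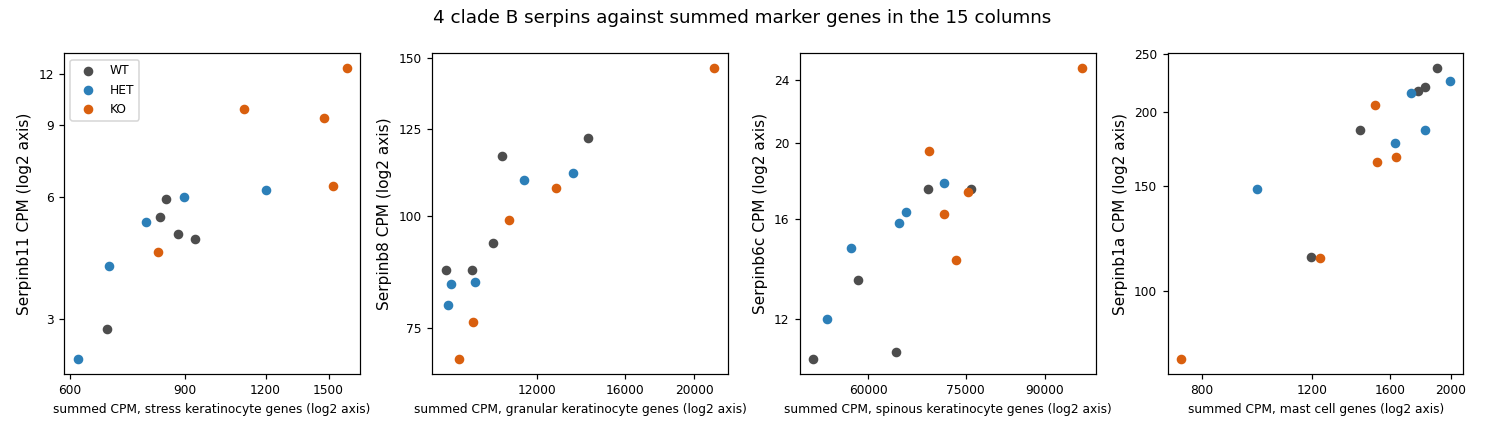
Each panel plots 1 serpin (CPM, log2 axis) against the summed CPM of a marker list (log2 axis) in the 15 replicates, colored by genotype. Points rise from lower left to upper right in all 4 panels, with r of 0.86, 0.88, 0.83 and 0.90 from left to right, and KO replicate 2 stands alone at the upper right for Serpinb8 and Serpinb6c.

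The seventh relation past both tests was that of Serpinb3a with the sum of clade B serpins outside the 10 (r = 0.89, rho = 0.87; adjusted permutation p = 0.00085 and 0.0068; r = 0.86 without the 2 farthest replicates). That sum is led by Serpinb3c and Serpinb3b, and Serpinb3a shares exon windows with Serpinb3b, so misplaced reads and shared variation cannot be told apart.

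Among themselves the 10 serpins were most alike in the pair Serpinb5 and Serpinb7 (r = 0.79) and least alike in Serpinb1a and Serpinb6c (r = -0.50), given as a description over 15 replicates. The genes most like a serpin over the replicates were named after their values were seen. For Serpinb11 they were Ccl20 (r = 0.89), a chemokine of stimulated epithelium, and Crnn (r = 0.88), a protein of stratified squamous epithelium. Ccl20 had a mean of only 0.54 CPM, so its r rests on few counts. For Serpinb1a the order was Cnr1 (r = 0.95), Cenpi (r = 0.94), Slf1 (r = 0.94), Cd200r3 (r = 0.93) and Ctsk, the protease cathepsin K (r = 0.93). For Serpinb8 the first was Osbpl1a (r = 0.97). Serpinb3a was most like its paralog Serpinb3b (r = 0.89). Serpinb2 was most like Ces2e (r = 0.94), then Pla2g3 (r = 0.92), Hebp2 (r = 0.91) and Pla2g2f (r = 0.90), of which Pla2g3 and Pla2g2f are phospholipase genes.

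Of the 18 other clade B symbols in the table, 8 were tested and 5 had no count in any replicate. None of the 8 passed in any comparison with edgeR; an unadjusted p under 0.05 was found for 3 of 8 in KO against WT, 0 in HET against WT and 4 of 8 in KO against HET, beside 19.3%, 1.58% and 16.0% of all genes. Serpinb3c, the most abundant of the 8, had WT, HET and KO means of 249, 298 and 172 CPM. Its log2 fold change was -0.53 ± 0.20 (SE) in KO against WT (adjusted p = 0.186) and -0.79 ± 0.21 in KO against HET (adjusted p = 0.141). Serpinb3b was at 132, 151 and 122 CPM and Serpinb6a at 121, 130 and 119 CPM in the same order. Serpinb10 and Serpinb9 had WT means of 28.7 and 7.06 CPM.

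**Figure D5:**
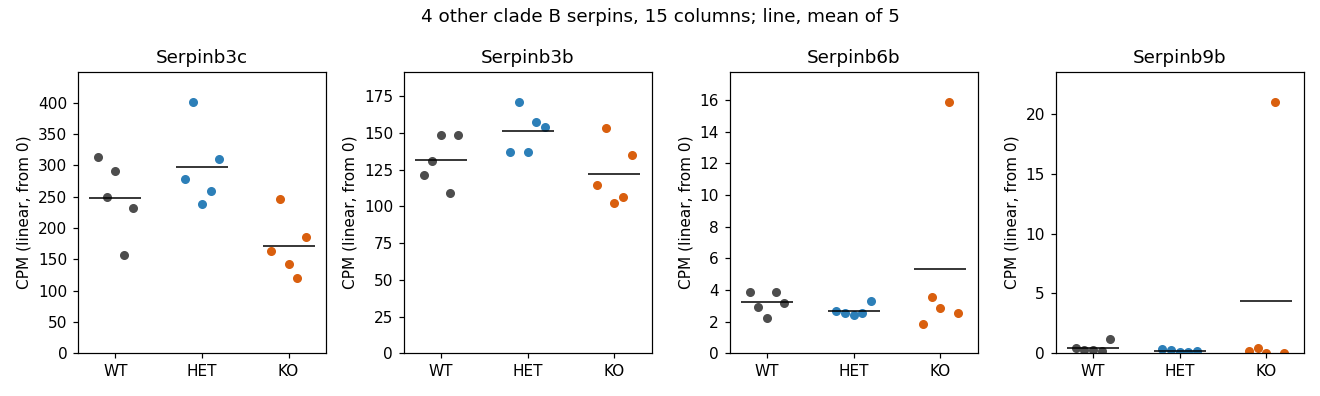
CPM on a linear axis from 0 of Serpinb3c, Serpinb3b, Serpinb6b and Serpinb9b in the 15 replicates, with a line at the mean of 5. Serpinb6b and Serpinb9b are low in every replicate but KO replicate 4, at 15.9 and 20.97 CPM.

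The proteases and inhibitors around the serpins were counted in the same way. None of 12 tested target proteases (among them urokinase, furin and 5 cysteine cathepsins) passed in any comparison with edgeR, with an unadjusted p under 0.05 for 1 of 12 in KO against WT, 0 in HET against WT and 2 of 12 in KO against HET, beside 19.3%, 1.58% and 16.0% of all genes. The median log2 fold change of the list was 0.02 in KO against WT. None of 9 tested cystatins, the inhibitors of cysteine cathepsins, passed, but 6 of 9 had an unadjusted p under 0.05 in KO against WT, beside 19.3% of all genes, 0 in HET against WT and 2 of 9 in KO against HET, beside 16.0%. Their fitted differences were above 0 for 4 of 9 and below 0 for 5 in KO against WT. Csta1 came nearest, at -0.72 ± 0.19 (SE; adjusted p = 0.102) in KO against WT. Among 20 tested serpins of other clades, 1 passed in KO against WT, beside 1.15% of all genes. It was Serpini1 (neuroserpin), which fell by 1.11 on the log2 scale (adjusted p = 0.0978). An unadjusted p under 0.05 was found for 4 of the 20 in KO against WT, beside 19.3% of all genes. It was found for 2 in HET against WT, beside 1.58%, and for 8 in KO against HET, beside 16.0%. Of 9 tested neutrophil markers, 8 had a fitted difference above 0 in KO against WT and 5 an unadjusted p under 0.05, beside 19.3% of all genes. The chemokine receptor Cxcr2 passed, beside 1.15% of all genes, and rose by 2.31 (adjusted p = 0.0891). S100a8 and S100a9, whose product calprotectin is also made by stressed keratinocytes, were at 1.71 (adjusted p = 0.102) and 1.73 (adjusted p = 0.109), while the summed neutrophil level was 14.8 to 27.8 CPM in WT and 22.4 to 103 CPM in KO replicates.

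Because 8 of the 10 serpins lie in a single cluster on chromosome 1 (Serpinb1a and Serpinb6c are on chromosome 13), their promoters were read as well. RefSeq windows on GRCm38.p6, from 250 bases before to 50 after the annotated start, were matched for 8 members, in 10 windows. These 8 include Serpinb6c on chromosome 13, whereas Serpinb1a and Serpinb13 had no window. The letters TGANTCA, a loose form of the AP-1 site with any middle base, read the same on both strands. They occurred in 6 of these 8 members: Serpinb2, Serpinb5, Serpinb7, Serpinb8, Serpinb11 and Serpinb12. The usual AP-1 site has C or G in the middle. Only Serpinb7 and Serpinb8 had that, as TGAGTCA, and the matches of the others read TGAATCA or TGATTCA. The letters TGANTCA occurred in 7.81% of 32851 promoter windows of all genes. Here and below, members are counted as genes and the background as windows. Serpinb2 and Serpinb12 have 2 windows each, so the shares are not of the same unit. Promoters of 4 members are printed 5′ to 3′. They hold 2 matches (Serpinb8, Serpinb11) or belong to the most abundant members (Serpinb5, Serpinb12). Capitals mark the letters TGANTCA.
Serpinb5, chr1:106860925-106861224, plus strand: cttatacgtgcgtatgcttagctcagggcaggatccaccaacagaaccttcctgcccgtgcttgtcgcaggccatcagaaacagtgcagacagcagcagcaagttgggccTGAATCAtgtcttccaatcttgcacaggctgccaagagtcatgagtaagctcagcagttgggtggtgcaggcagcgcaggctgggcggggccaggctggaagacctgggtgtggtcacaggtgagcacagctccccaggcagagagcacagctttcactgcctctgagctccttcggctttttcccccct
Serpinb8, chr1:107589756-107590055, plus strand: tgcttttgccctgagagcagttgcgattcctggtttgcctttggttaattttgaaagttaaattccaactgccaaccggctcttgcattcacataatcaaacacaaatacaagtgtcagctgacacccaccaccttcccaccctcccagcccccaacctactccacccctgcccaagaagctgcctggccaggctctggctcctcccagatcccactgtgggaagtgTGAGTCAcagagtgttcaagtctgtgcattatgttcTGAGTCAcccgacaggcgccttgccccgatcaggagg
Serpinb11, chr1:107362064-107362363, plus strand: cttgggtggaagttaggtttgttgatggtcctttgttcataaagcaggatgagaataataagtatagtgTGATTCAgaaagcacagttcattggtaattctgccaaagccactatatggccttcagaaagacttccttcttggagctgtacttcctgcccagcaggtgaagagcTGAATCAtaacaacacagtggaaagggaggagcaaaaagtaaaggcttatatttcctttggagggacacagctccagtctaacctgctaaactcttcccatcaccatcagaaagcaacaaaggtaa
Serpinb12, chr1:106934199-106934498, plus strand: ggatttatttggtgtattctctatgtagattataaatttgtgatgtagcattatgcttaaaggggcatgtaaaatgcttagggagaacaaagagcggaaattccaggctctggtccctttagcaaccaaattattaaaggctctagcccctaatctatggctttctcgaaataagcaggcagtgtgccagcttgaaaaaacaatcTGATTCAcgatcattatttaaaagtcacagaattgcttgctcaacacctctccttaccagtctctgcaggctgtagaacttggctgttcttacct

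In Serpinb11 the matches began at -181 and -76, in Serpinb8 at -23 and 13, in Serpinb12 at -45 and in Serpinb5 at -140, counted from 0 at the start. The other letters searched, on both strands, were AACNNGTT (grainyhead-like factors), in 0 of 8 members and 4.20% of all windows, TTGCNNAA (C/EBP), in 2 of 8 and 10.8%, TTCNNNGAA (STAT), in 1 of 8 and 8.30%, and TATAAA, in 5 of 8 and 13.6%. In the first window of Serpinb2 and in that of Serpinb12, TGANTCA, C/EBP and TATA matches did not overlap one another. A match gives the letters only and does not show that a factor binds there.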

How the data were processed

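Poly(A) RNA of flash-frozen skin was made into directional libraries, per the labels. The deposited table holds raw read counts per gene symbol for 24 libraries. The authors' processing notes name STAR, HTSeq and the build hg19, which is a human build beside mouse symbols; versions, annotation and the strand setting were not given in the sources used here. Libraries were summed by title number into 15 replicates. The numbers 1 to 5 follow ascending title number. Counts were scaled by TMM factors and filtered with filterByExpr, and edgeR 4.0.16 (R 4.3.3) fitted 17094 genes by quasi-likelihood, with all 3 genotypes in a single fit and Benjamini-Hochberg adjustment over all genes. A gene passed at an adjusted p of 0.1; calls also needed an absolute log2 fold change of 1. Intervals of 95% and SE come from the same fit. CPM is the count per 1000000 of the TMM-adjusted library size, and lengths are merged exons of GENCODE vM21. Relations with lists used two-sided permutation tests with 100000 permutations, and p-values were adjusted over 170 relations.

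The 10 serpins and the gene lists were chosen with earlier results of these data known. All 10 serpins are named, as are the 5 most abundant tested clade B serpins outside the 10, list genes with an adjusted p of 0.1 or below, and the nearest ones where none passed. The rule for genes of like pattern applied only to members that passed KO against WT and named none, so those given were chosen after their values were seen, as were Serpinb6b and Serpinb9b. The promoter letters were chosen after the counts had been seen. Scripts were tested on simulated counts. Alternatives were DESeq2 1.42.0, limma-voom (limma 3.58.1), RLE and total count scaling, other filters, subsets of libraries, treatments of WT replicate 2, covariates and leaving out each replicate.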

Additional observations from a re-analysis of the deposited data

Results flagged for a closer look

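Within a genotype, the highest or lowest replicate was set against the other four by its gap divided by the range of the group (Dixon's ratio, critical value 0.71 for 5 values). Of 30 groups, 4 exceeded it, where chance gives 1.5. Serpinb3a was far below the other WT replicates in WT replicate 4 (ratio 0.81) and far above the other HET replicates in HET replicate 2 (ratio 0.834). Serpinb12 was highest in HET replicate 4, at 884 CPM (ratio 0.792). Serpinb13 was highest in KO replicate 1, at 0.54 CPM (ratio 0.763), a value from few counts.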

How the results depend on the processing

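No paired analysis was possible because each title number belongs to 1 genotype. The number of the 10 serpins that passed was 0 in each comparison as analyzed. It was 1 with DESeq2 in KO against WT and 1 in KO against HET. It was 2 and 2 where the 24 libraries entered one by one, and 1 and 2 under limma-voom by title series and number. On leaving out a replicate it was 0 to 1. With the 24 libraries, 2103 genes of 16034 passed upward and 1695 downward in KO against WT. In KO against HET they were 2243 and 1701. Limma-voom by series and number passed 1098 and 707 in KO against WT, and 706 and 472 in KO against HET. Without KO replicate 3, where Serpinb11 passed in KO against WT, 421 and 318 genes of 17290 did. HET against WT stayed at 0 in every setting run. Differences that changed sign were all small. Under total count scaling Serpinb2 (-0.024) and Serpinb12 (-0.049) did so in KO against WT, Serpinb11 (-0.002) in HET against WT and Serpinb5 (-0.024) in KO against HET. Limma-voom gave -0.008, -0.010 and -0.018 for Serpinb2 and Serpinb12 in KO against WT and Serpinb11 in HET against WT. Serpinb12 in KO against WT was -0.007 at a mean of 50 counts and -0.014 with the Y-linked covariate, which gave -0.002 for Serpinb11 in HET against WT. Serpinb1a in HET against WT was 0.016 and 0.008 in title series 1 and 2 alone, 0.007 with 24 libraries and 0.001 with limma-voom by series and number, which gave -0.058 for Serpinb11. Serpinb5 in KO against HET was -0.009 in series 1. With WT replicate 2 as 2 columns, Serpinb8 in KO against WT was 0.016 and Serpinb11 in HET against WT -0.043; by 1 library alone, Serpinb11 was -0.021 and Serpinb2 in KO against WT -0.010. On leaving out a replicate, the ranges that crossed 0 were, in KO against WT, -0.151 to 0.144 (Serpinb2), -0.096 to 0.064 (Serpinb12) and -0.203 to 0.083 (Serpinb8); in HET against WT, -0.174 to 0.047 (Serpinb1a) and -0.125 to 0.180 (Serpinb11); and in KO against HET, -0.263 to 0.031 (Serpinb2), -0.038 to 0.078 (Serpinb5), -0.079 to 0.069 (Serpinb7) and -0.094 to 0.193 (Serpinb8). The cause of these changes was not tested. Serpinb13, with 4 to 18 counts a replicate, was left out by the filter in the single series, with the 24 libraries one by one, at a mean of 50 counts and in KO against WT fitted without HET.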

Other observations

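Serpinb6b, a clade B paralog on chromosome 13, had 309 counts (15.9 CPM) in KO replicate 4 and 39 to 107 counts in the other 14 replicates. Serpinb9b, from the same cluster, had 408 counts (20.97 CPM) there and 1 to 24 elsewhere. This replicate is a single library that lay farthest from the rest over all genes (chi-square divided by its degrees of freedom, 39.8 to 144 per library pair). It had the highest summed neutrophil level, 103 CPM, the highest Serpinb11 level, 12.4 CPM, and the lowest Serpinb1a level, 76.9 CPM.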
